A study of Mus musculus with 16 samples.

Results

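Cortical layer marker genes are genes whose transcripts are concentrated in excitatory projection neurons of particular cortical layers. The 8 examined here were found by their gene symbols among the 24060 genes listed for each library. Cux1, Cux2, Rorb and Rasgrf2 stood for the upper layers, and Fezf2, Bcl11b, Tbr1 and Foxp2 for the deep layers. The question was whether their RNA was lost from 1 set of layers in mice with tau pathology and reduced Trem2. Membership went by symbol, and the 8 were chosen with earlier results of these libraries known.

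The cortex of 16 mice aged 8 to 9 months was profiled by 3' RNA sequencing, 1 library per mouse, on a background labelled C57BL/6; C3. The 4 genotypes, each with 2 females and 2 males, were P301S+ TREM2+/+ (human disease-mutant tau transgene, both Trem2 alleles), P301S+ TREM2+/- (the transgene and 1 allele, here the heterozygotes), P301S+ TREM2-/- (the transgene and no allele, here the knockouts) and TREM2+/+ (no transgene and both alleles, here the controls). Trem2 is a lipid-sensing receptor of microglia. The promoter of the tau transgene and the dissection borders of the cortical tissue are not given in the sources used here. Controls without tau but with reduced Trem2 were not analysed here, so the Trem2 comparisons hold within tau mice.

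Upper-layer neurons mostly connect the cortex with itself, whereas deep-layer neurons send axons to the spinal cord, brainstem, striatum and thalamus. Their identities are set during development by transcription factors that hold each other in check, and many of these factors are still made in the adult. Cux1 and Cux2 are homeodomain factors of upper-layer neurons that shape dendrites and synapses, Rorb is a nuclear receptor enriched in layer 4, and Rasgrf2 is a calcium-regulated exchange factor for Ras and Rac enriched in layers 2 and 3. Fezf2 directs the fate of neurons that project below the cortex, and Bcl11b (Ctip2) acts with it in corticospinal neurons of layer 5. Tbr1 and Foxp2 are transcription factors of layer 6 corticothalamic neurons. Bcl11b and Foxp2 are also made by the projection neurons of the striatum, which lies beneath the cortex.

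All 8 genes were above 0 in every library and passed the filter of a mean of at least 1 RPKM (reads per kilobase of gene per 1e+06 reads). Reads behind a gene in a library ranged from 19 to 262 for Cux2 and from 69 to 398 for Fezf2, the genes with fewest reads, and from 1593 to 10951 for Bcl11b. In the GRCm38 annotation of GENCODE M21, Cux1 lies on chromosome 5 (136248135 to 136567490, minus strand), Cux2 on chromosome 5 (121856366 to 122050102, minus), Rorb on chromosome 19 (18930605 to 19111196, minus) and Rasgrf2 on chromosome 13 (91880400 to 92131656, minus). Fezf2 lies on chromosome 14 (12342094 to 12348189, minus), Bcl11b on chromosome 12 (107910403 to 108003602, minus), Tbr1 on chromosome 2 (61802930 to 61814114, plus) and Foxp2 on chromosome 6 (14901349 to 15441977, plus). Cux1 is overlapped by 4 annotated genes, Cux2 by 2 and Foxp2 by 1, of which 1 of those in Cux1 is itself listed in the files. Because the use of strand in counting is not given, reads of these overlapping genes could not be told apart from those of Cux1, Cux2 and Foxp2. The Cux1 locus also makes the Golgi protein CASP from the same symbol. Since reads sit at transcript 3' ends, levels of different genes were not compared.

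The 250 bases before the RefSeq start site (GRCm38.p6) are shown for the genes around which the results below turn. The windows of Cux1, Fezf2 and Tbr1 lie inside the GENCODE spans given above, downstream of the outermost start annotated there. Rasgrf2 and Cux1 had the knockout values that did not overlap those of P301S+ TREM2+/+ mice, and Fezf2 and Tbr1 followed each other across libraries. Capitals mark a GC box (GGGCGG or its reverse complement).
Rasgrf2, chr13:92131829-92132078, minus strand: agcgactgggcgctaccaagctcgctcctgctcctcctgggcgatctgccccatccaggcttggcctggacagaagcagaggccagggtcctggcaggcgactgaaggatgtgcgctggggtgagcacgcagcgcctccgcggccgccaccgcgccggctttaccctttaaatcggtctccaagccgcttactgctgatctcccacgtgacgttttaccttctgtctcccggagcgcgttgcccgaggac
Cux1, chr5:136565982-136566231, minus strand: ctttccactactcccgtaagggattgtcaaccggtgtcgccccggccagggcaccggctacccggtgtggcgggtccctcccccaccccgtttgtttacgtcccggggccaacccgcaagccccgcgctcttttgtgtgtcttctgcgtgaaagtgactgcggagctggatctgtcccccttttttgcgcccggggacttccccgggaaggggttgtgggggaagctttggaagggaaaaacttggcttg
Fezf2, chr14:12345866-12346115, minus strand: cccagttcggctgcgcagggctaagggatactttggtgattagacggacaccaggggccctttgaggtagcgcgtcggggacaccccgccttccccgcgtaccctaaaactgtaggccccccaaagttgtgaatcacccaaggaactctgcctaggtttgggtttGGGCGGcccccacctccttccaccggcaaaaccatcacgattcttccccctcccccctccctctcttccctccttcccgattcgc
Tbr1, chr2:61804203-61804452, plus strand: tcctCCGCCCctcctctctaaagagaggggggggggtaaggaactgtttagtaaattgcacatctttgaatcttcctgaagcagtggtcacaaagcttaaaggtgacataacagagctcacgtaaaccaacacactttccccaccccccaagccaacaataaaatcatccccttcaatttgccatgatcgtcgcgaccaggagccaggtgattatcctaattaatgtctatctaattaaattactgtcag
The window of Fezf2 held 1 GC box and that of Tbr1 held 1, while the letters were not found in the windows of Rasgrf2 and Cux1. The GC box was present in 32.7% of 32851 windows of the same length. Also searched on both strands were CCAAT (33.8% of windows), TATAAA (12.4%), TGACGTCA (1.5%) and CAGATG (14.4%), which no letters in these 4 windows matched. The table held a window for 7 of the 8 genes.

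Trem2 itself followed the labels, with 27 ± 8.69 RPKM in P301S+ TREM2+/+ mice, 12.9 ± 8.98 RPKM in heterozygotes, 2.09 ± 1.11 RPKM in knockouts and 12.4 ± 5.53 RPKM in controls (mean ± SD, n = 4 each). Libraries held 2.55 to 14.47 M reads (M, 1e+06). Control replicate 3, a female, stood apart. Its mean correlation with the other libraries across genes was 0.765, against 0.934 to 0.962 for the others, and differences from the controls are therefore given with and without it. With that library in the fit, limma on log2(RPKM + 1) called 0% of 12015 genes at an adjusted p under 0.05 in the P301S effect (P301S+ TREM2+/+ minus control), 0% in partial loss (heterozygotes minus P301S+ TREM2+/+) and 0.00832% in complete loss (knockouts minus P301S+ TREM2+/+). It called 0% in knockouts minus heterozygotes, 0% in heterozygotes minus controls, 0% in knockouts minus controls and 0% in the test of any genotype. Without it, the share was 0.0416% in the P301S effect, 0% in partial loss, 0.108% in complete loss and 0.0166% in knockouts minus heterozygotes. It was 0.025% in heterozygotes minus controls, 0.00832% in knockouts minus controls and 0.0583% in the test of any genotype. P-values measure the spread between these mice.

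None of the 8 genes passed the limma threshold in any of the 6 comparisons or in the test of any genotype, with or without control replicate 3. At an unadjusted p under 0.05, 0 of the 8 stood out in the P301S effect, 0 in partial loss and 2 in complete loss (Cux1 and Rasgrf2), where 13.8%, 2.7% and 9.9% of all genes did. In knockouts minus heterozygotes the number was 0 (3.42% of all genes), in heterozygotes minus controls 0 (9.6%), in knockouts minus controls 1 (Rasgrf2, 9.71%) and in the test of any genotype 1 (Rasgrf2, 7.95%). Without control replicate 3, the numbers were 1 for the P301S effect (Cux2, 21.2% of all genes), 0 for partial loss (10.3%), 2 for complete loss (23.6%), 2 for knockouts minus heterozygotes (7.77%), 0 for heterozygotes minus controls (8.72%), 1 for knockouts minus controls (4.88%) and 1 for the test of any genotype (17.6%). In whole cortex, fewer neurons of a layer and less RNA per neuron cannot be told apart.

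**Figure D1:**
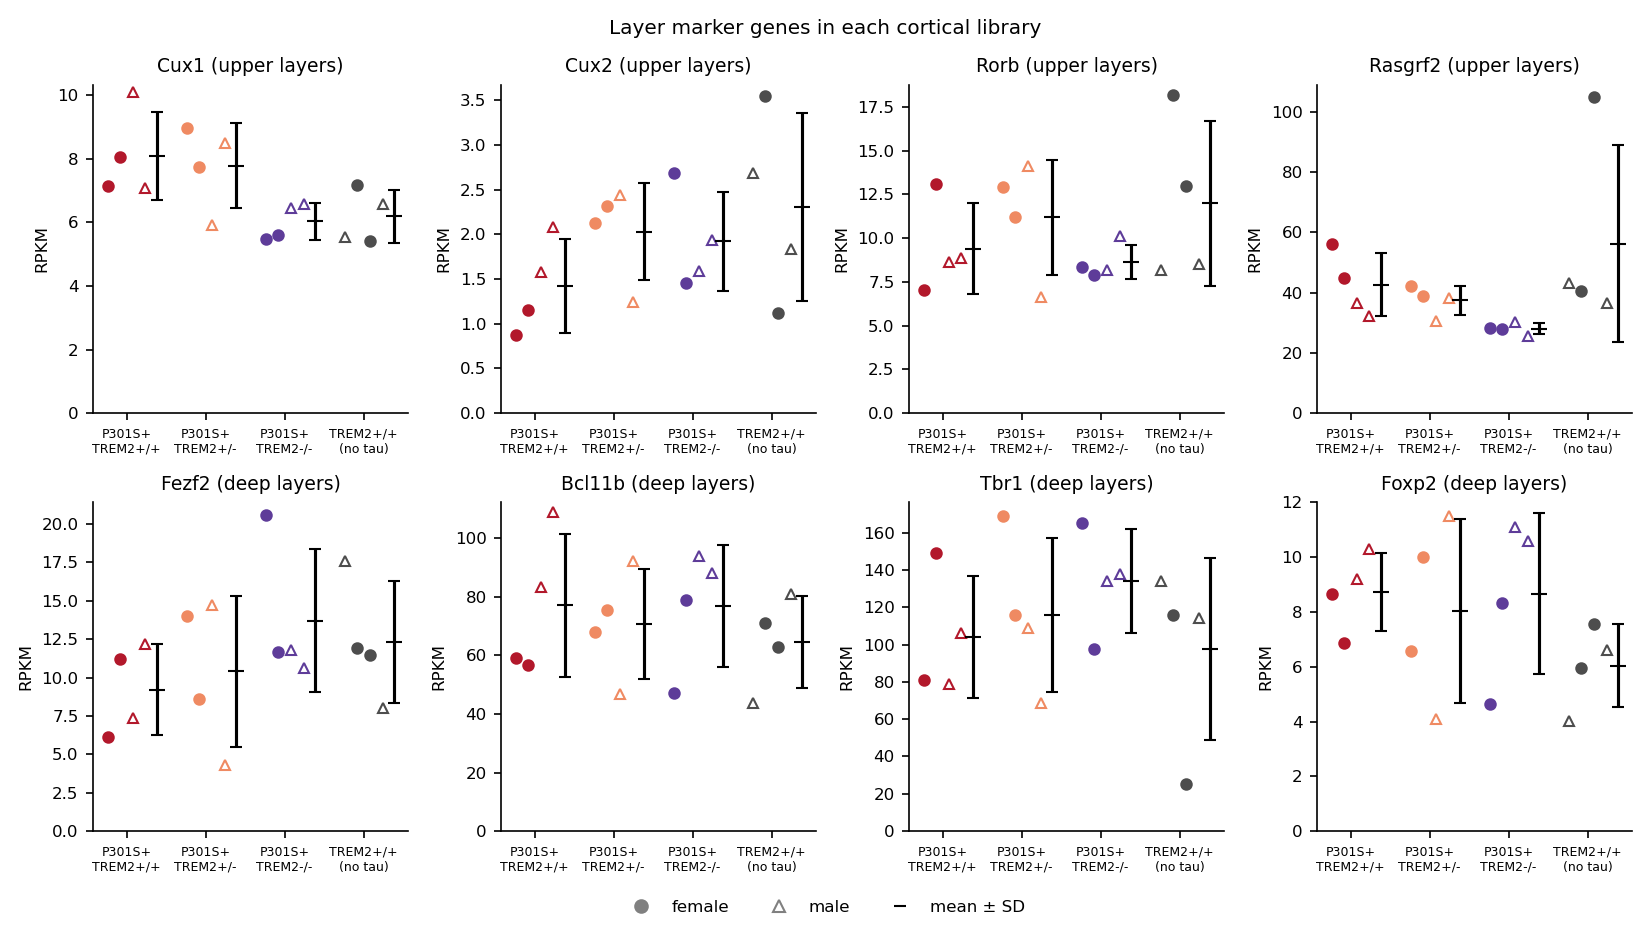
RPKM of each layer marker gene in each library (y axis, starting at 0) by genotype (x axis), with females as filled circles, males as open triangles and bars for the mean ± SD (n = 4 each). The knockout points of Rasgrf2 lie between 25.7 and 30.2 RPKM, below the other libraries, and control replicate 3 stands at 105 RPKM for Rasgrf2 and at 25.4 RPKM for Tbr1.

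Rasgrf2, the Ras exchange factor of layers 2 and 3, was lowest in the knockouts. It had 28.4, 28.1, 30.2 and 25.7 RPKM in knockouts and 56.3, 44.9, 36.7 and 32.3 RPKM in P301S+ TREM2+/+ mice. Heterozygotes had 42.1, 38.8, 30.5 and 38.1 RPKM, and controls had 43.1, 40.4, 105 and 36.7 RPKM. The 4 knockout values lay below each of the 12 values of the other genotypes, although by a small margin over the lowest heterozygote. Group means were 28.1 ± 1.82 RPKM in knockouts, 42.6 ± 10.5 RPKM in P301S+ TREM2+/+ mice, 37.4 ± 4.92 RPKM in heterozygotes and 40.1 ± 3.18 RPKM in controls without replicate 3 (56.3 ± 32.6 RPKM with it).

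The knockouts differed from P301S+ TREM2+/+ mice in Rasgrf2 by -0.55 (log2, SE 0.24), which did not pass the threshold (limma adjusted p = 0.472). Without control replicate 3, which feeds the shared estimate of the spread, the SE was 0.13 and the adjusted p 0.0718. With a weight per library estimated by limma, the difference was -0.55 with an adjusted p of 0.041, where 5.74% of all genes passed, and over all 26 alternatives for this value the adjusted p ranged from 0.041 to 0.905. Against the controls the knockout difference was -0.84 (SE 0.24, limma adjusted p = 0.45), or -0.53 (SE 0.14, adjusted p = 0.689) without replicate 3. Against the heterozygotes it was -0.39 (SE 0.24, limma adjusted p = 1, or SE 0.13 and adjusted p = 0.549 without replicate 3). The P301S effect was -0.29 (SE 0.24) with all controls and 0.02 (SE 0.14) without replicate 3, so its sign rested on that library. Among P301S+ TREM2+/+ mice the females had 56.3 and 44.9 RPKM and the males 36.7 and 32.3 RPKM. Female knockouts differed from their tau counterparts by -0.81 and male knockouts by -0.30 (female minus male -0.51, SE 0.49, limma adjusted p = 0.916).

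Cux1, a homeodomain factor of upper-layer neurons, was also lower in knockouts than in P301S+ TREM2+/+ mice, but was at the knockout level in the controls. Knockouts had 5.47, 5.6, 6.46 and 6.58 RPKM, P301S+ TREM2+/+ mice 7.13, 8.05, 10.1 and 7.08 RPKM, heterozygotes 8.98, 7.75, 5.93 and 8.5 RPKM, and controls 5.55, 7.17, 5.43 and 6.59 RPKM. Knockouts and P301S+ TREM2+/+ mice did not overlap, whereas heterozygotes and controls each overlapped both. The knockouts differed from P301S+ TREM2+/+ mice by -0.36 (log2, SE 0.16, limma adjusted p = 0.472, and 0.154 without control replicate 3). P301S+ TREM2+/+ mice differed from controls by 0.33 (SE 0.16, limma adjusted p = 0.363), or by 0.28 (SE 0.16, adjusted p = 0.312) without control replicate 3. Knockouts differed from controls by -0.03 (SE 0.16, limma adjusted p = 0.928), or by -0.08 (SE 0.16, adjusted p = 0.999) without it. Complete loss and the P301S effect share the P301S+ TREM2+/+ mice, so their opposite signs are not independent.

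Rasgrf2 and Cux1 were thus the 2 of 8 genes whose knockout and P301S+ TREM2+/+ values did not overlap, where 7.62% of all genes tested did not. Groups of Rasgrf2 also did not overlap between knockouts and heterozygotes (1 of 8 genes, 5.37% of all genes) and between knockouts and controls (1 of 8, 3.79%). No layer marker gene was free of overlap in the P301S effect (0 of 8, 4.83% of all genes), in partial loss (0 of 8, 2.85%) or in heterozygotes minus controls (0 of 8, 4.39%). Rescaling the libraries by TMM factors brought the knockout and heterozygote values of Rasgrf2 into overlap. Of the markers of other cells and regions, 0 passed the limma threshold in complete loss, where the median log2 difference over all genes was -0.02. Their medians were -0.61 for choroid plexus (7 of 8 genes lower), -0.34 for microglia (8 of 9 lower), -0.33 for endothelium (5 of 6 lower), -0.31 for striatum (6 of 9 lower) and -0.26 for astrocytes (5 of 8 lower). They were 0.19 for excitatory neurons (6 of 7 higher) and 0.15 for oligodendrocytes (5 of 8 higher), and lay between -0.09 and 0.13 for the pan-neuronal, interneuron, thalamus and hippocampus lists. The summed levels overlapped between the genotypes for choroid plexus (126 to 996 RPKM in knockouts, 217 to 1788 RPKM in P301S+ TREM2+/+ mice) and for microglia (278 to 616 RPKM in knockouts, 404 to 655 RPKM in P301S+ TREM2+/+ mice). Those of the endothelial genes did not overlap (45.3 to 51.5 RPKM in knockouts, 55.5 to 65 RPKM in P301S+ TREM2+/+ mice). Apart from the striatal and excitatory neuron levels, fitted as covariates below, the part of these lists in the Rasgrf2 and Cux1 values was not tested.

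Cux2, the paralogue of Cux1, had its lowest mean in P301S+ TREM2+/+ mice. P301S+ TREM2+/+ mice had 0.872, 1.15, 1.58 and 2.08 RPKM, heterozygotes 2.13, 2.32, 2.44 and 1.24 RPKM, knockouts 2.68, 1.46, 1.59 and 1.94 RPKM, and controls 2.69, 3.54, 1.12 and 1.84 RPKM. The lowest values were those of the P301S+ TREM2+/+ females and of control replicate 3, and all genotypes overlapped. P301S+ TREM2+/+ mice differed from controls by -0.42 (log2, SE 0.24, limma adjusted p = 0.446), or by -0.62 (SE 0.23, adjusted p = 0.169) without control replicate 3. The knockouts differed from P301S+ TREM2+/+ mice by 0.28 (SE 0.24, limma adjusted p = 0.732) and the heterozygotes by 0.33 (SE 0.24, limma adjusted p = 1). Because Cux2 lay near 1 RPKM, the pseudocount of 1 understates these log2 differences.

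Rorb, the nuclear receptor of layer 4, spanned a 2.74-fold range over the 16 libraries without an order by genotype. Its levels were 7.03, 13.1, 8.65 and 8.85 RPKM in P301S+ TREM2+/+ mice, 12.9, 11.2, 14.1 and 6.65 RPKM in heterozygotes, 8.36, 7.92, 8.19 and 10.1 RPKM in knockouts and 8.16, 18.2, 13 and 8.5 RPKM in controls. The knockouts had the narrowest spread (8.63 ± 0.972 RPKM) against the controls (12 ± 4.72 RPKM), and all genotypes overlapped. Complete loss gave a difference of -0.09 (log2, SE 0.25, limma adjusted p = 0.93), and the P301S effect was -0.28 (SE 0.25, limma adjusted p = 0.598), or -0.27 (SE 0.26, adjusted p = 0.579) without control replicate 3.

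Fezf2 and Tbr1 had higher means in knockouts than in P301S+ TREM2+/+ mice, and Bcl11b and Foxp2 nearly equal ones, with no difference past the threshold. Fezf2, the subcerebral fate regulator, had 20.6, 11.7, 11.8 and 10.6 RPKM in knockouts, 6.12, 11.2, 7.35 and 12.2 RPKM in P301S+ TREM2+/+ mice, 14, 8.59, 14.7 and 4.31 RPKM in heterozygotes and 17.6, 11.9, 11.5 and 8.04 RPKM in controls. Replicate 1 of the knockouts stood well above the other 3 knockouts, and the groups overlapped. In complete loss the difference was 0.53 (log2, SE 0.34, limma adjusted p = 0.623). P301S+ TREM2+/+ mice differed from controls by -0.38 (SE 0.34, limma adjusted p = 0.613), or by -0.42 (SE 0.37, adjusted p = 0.525) without control replicate 3.

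Tbr1, the layer 6 T-box factor, had 165, 97.6, 134 and 138 RPKM in knockouts, 80.9, 149, 78.9 and 106 RPKM in P301S+ TREM2+/+ mice, 169, 116, 109 and 68.7 RPKM in heterozygotes and 134, 116, 25.4 and 114 RPKM in controls. The value of 25.4 RPKM, from control replicate 3, was the lowest of all 16, and the other 3 controls averaged 121 ± 11 RPKM. The P301S effect was 0.28 (log2, SE 0.44, limma adjusted p = 0.785) with that library and -0.30 (SE 0.26, adjusted p = 0.521) without it, so its direction rested on 1 mouse. In complete loss the difference was 0.39 (SE 0.44, limma adjusted p = 0.798, or SE 0.24 and adjusted p = 0.347 without control replicate 3).

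Bcl11b had 59.1, 56.8, 83.3 and 109 RPKM in P301S+ TREM2+/+ mice, 68, 75.5, 46.8 and 92.1 RPKM in heterozygotes, 47.1, 78.8, 93.8 and 88 RPKM in knockouts and 43.8, 71.2, 62.8 and 80.9 RPKM in controls. Foxp2 had 8.64, 6.86, 9.22 and 10.3 RPKM in P301S+ TREM2+/+ mice, 6.56, 10, 4.1 and 11.5 RPKM in heterozygotes, 4.63, 8.31, 11.1 and 10.6 RPKM in knockouts and 4.01, 5.96, 7.57 and 6.62 RPKM in controls. Within each tau genotype, both genes ranked the libraries in the same order. The lowest values among tau mice were those of heterozygote replicate 3 and knockout replicate 1, and no P301S+ TREM2+/+ mouse was as low. P301S+ TREM2+/+ mice differed from controls by 0.23 in Bcl11b (log2, SE 0.27, limma adjusted p = 0.704) and by 0.48 in Foxp2 (SE 0.29, limma adjusted p = 0.463). Without control replicate 3 these differences were 0.27 in Bcl11b (SE 0.29, limma adjusted p = 0.6) and 0.62 in Foxp2 (SE 0.30, limma adjusted p = 0.252). The knockouts differed from P301S+ TREM2+/+ mice by 0.00 in Bcl11b (SE 0.27, limma adjusted p = 0.999) and by -0.06 in Foxp2 (SE 0.29, limma adjusted p = 0.963).

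**Figure D2:**
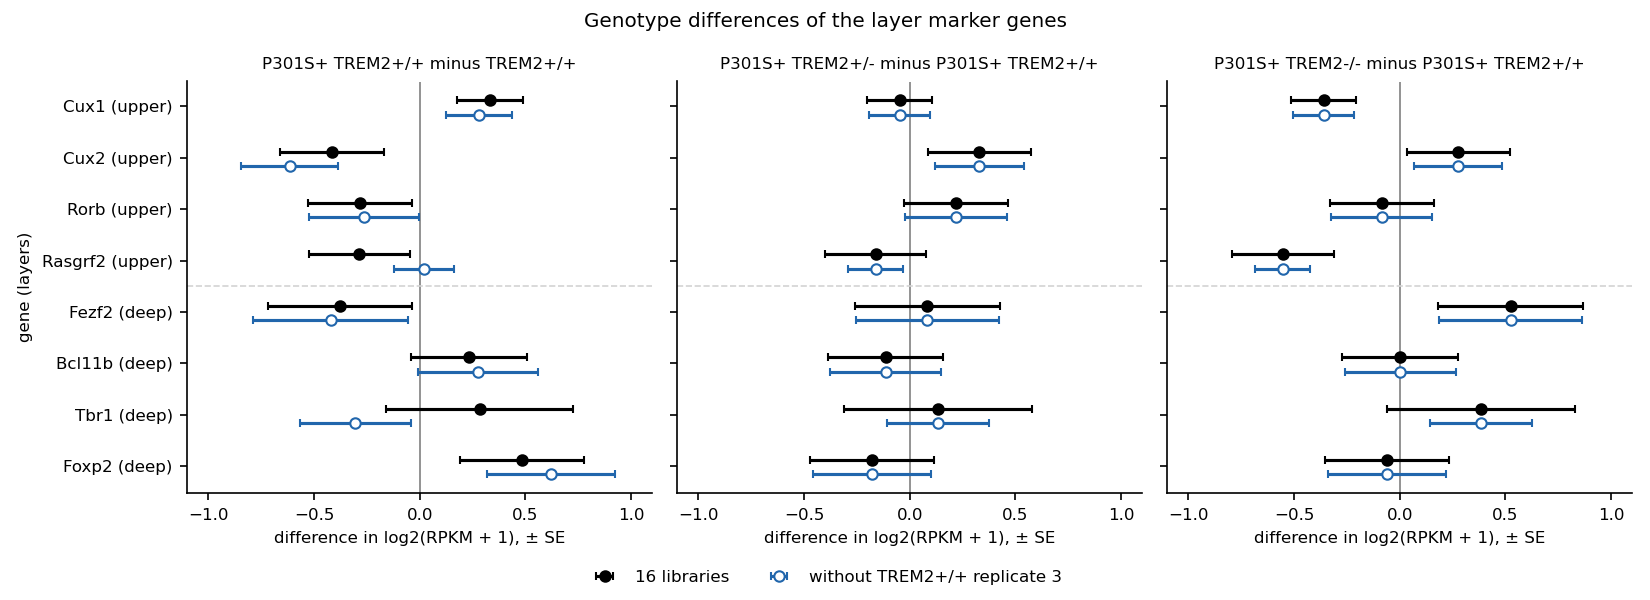
Difference in log2(RPKM + 1) of each layer marker gene (x axis, ± SE) for P301S+ TREM2+/+ minus control, heterozygotes minus P301S+ TREM2+/+ and knockouts minus P301S+ TREM2+/+, with all 16 libraries (filled) and without control replicate 3 (open). Rasgrf2 (-0.55) and Cux1 (-0.36) lie below 0 in complete loss, and Tbr1 changes sign in the P301S effect between 0.28 and -0.30.

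Set against each other, the 4 upper-layer genes were low relative to the 4 deep-layer genes in the knockouts. The mean log2(RPKM + 1) of the upper-layer genes minus that of the deep-layer genes was -1.80, -1.95, -2.12 and -1.996 in knockouts. It was -1.40, -1.51, -1.45 and -1.94 in P301S+ TREM2+/+ mice, -1.54, -1.52, -1.30 and -1.52 in heterozygotes and -1.46, -1.17, -0.79 and -1.60 in controls. Of the 12 other libraries, P301S+ TREM2+/+ replicate 4 reached the knockout range. The group means were -1.97 ± 0.13 in knockouts, -1.57 ± 0.25 in P301S+ TREM2+/+ mice, -1.47 ± 0.11 in heterozygotes and -1.26 ± 0.36 in controls (-1.41 ± 0.22 without replicate 3, n = 3).

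The upper-layer mean was 3.12 ± 0.08 in knockouts and 3.30 ± 0.09 in P301S+ TREM2+/+ mice, and the deep-layer mean was 5.08 ± 0.14 in knockouts and 4.87 ± 0.25 in P301S+ TREM2+/+ mice, with the 2 genotypes overlapping in the deep-layer mean. In complete loss the median log2 difference was -0.22 over the upper-layer genes and 0.19 over the deep-layer genes, against -0.02 over all genes. The 8 genes divided evenly by sign in that comparison, with 4 higher and 4 lower, and Cux2 was the upper-layer gene that was higher. In knockouts minus heterozygotes all 4 upper-layer genes were lower (median -0.31) and all 4 deep-layer genes higher (0.19). Knockouts minus controls split the same way (medians -0.25 and 0.33, or -0.35 and 0.19 without control replicate 3). These comparisons share the knockouts, so they are not independent. The values describe these libraries and carry no test, because the genes were chosen with results of the same libraries known. Of the deep-layer genes, Bcl11b and Foxp2 also rose with the striatal marker level described below. The part of that level in the upper minus deep values was not tested.

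**Figure D3:**
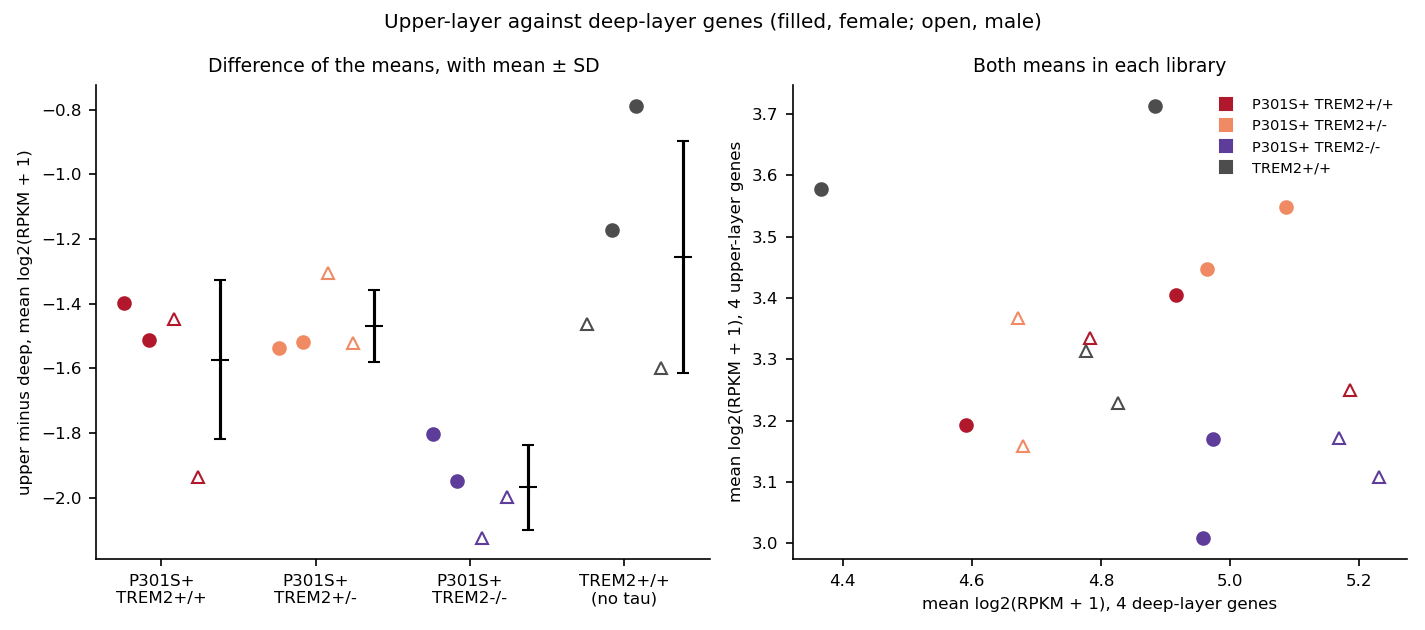
Left, mean log2(RPKM + 1) of the 4 upper-layer genes minus that of the 4 deep-layer genes in each library (y axis) by genotype (x axis), with bars for the mean ± SD, and right, the upper-layer mean (y axis) against the deep-layer mean (x axis). Filled circles are females and open triangles males, and the knockouts sit between -2.12 and -1.80 on the left, with 1 library of another genotype, at -1.94, among them.

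Against P301S+ TREM2+/+ mice, the further upper-layer markers were not low in the knockouts as a list, whereas against the controls most were lower. Of 15 further upper-layer genes, 14 passed the filter, and of 19 further deep-layer genes, 19 did. In complete loss, and in heterozygotes or knockouts minus controls, 0 rose and 0 fell in either list by limma. In complete loss the upper-layer list had 9 of 14 genes higher (median 0.13), and the deep-layer list 13 of 19 (median 0.08). The median over all genes was -0.02. Against the controls, 9 of the 14 upper-layer genes were lower in knockouts (median -0.13, all genes 0.08). Without control replicate 3, 1 of the 14 was higher (median -0.28, all genes 0.01). In heterozygotes minus controls 10 of the 14 were lower (median -0.17), and without that library 1 was higher (median -0.39). The deep-layer list had 14 of 19 genes higher in knockouts than in controls (median 0.18), or 13 without that library (0.06). Lmo4, a LIM-domain regulator and the upper-layer list's most abundant gene, had 350 ± 74.4 RPKM in knockouts and 272 ± 69.4 RPKM in P301S+ TREM2+/+ mice (n = 4 each, limma adjusted p = 0.626). The neuronal POU factor Pou3f3 had 41.6 ± 5.14 RPKM in knockouts and 33.9 ± 4.19 RPKM in P301S+ TREM2+/+ mice (n = 4 each, limma adjusted p = 0.556).

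In the P301S effect, 12 of the 14 further upper-layer genes were lower (median -0.23, or -0.31 without control replicate 3), against a median of 0.06 over all genes (0.01 without it). Again 0 rose and 0 fell by limma. Of the 19 further deep-layer genes, 14 were higher with all controls (median 0.14) but 8 without control replicate 3 (median -0.10). Pcp4, a calmodulin regulator of deep-layer and striatal neurons, had 952 ± 100 RPKM in P301S+ TREM2+/+ mice and 663 ± 268 RPKM in controls (n = 4 each, log2 difference 0.61, limma adjusted p = 0.379, or 0.85 with 0.146 without control replicate 3). Tle4, a layer 6 corepressor, had 30.3 ± 1.49 RPKM in P301S+ TREM2+/+ mice and 23.6 ± 3.04 RPKM in controls (n = 4 each, log2 difference 0.36, limma adjusted p = 0.269, or 0.28 with 0.153 without that library). General markers of excitatory neurons were lower in 5 of 7 genes (median -0.63, and 7 of 7 lower with a median of -0.60 without control replicate 3), with summed levels of 2057 to 3733 RPKM in P301S+ TREM2+/+ mice and 3236 to 9638 RPKM in controls. The highest of these sums belonged to control replicate 3. The pan-neuronal list had 7 of 8 genes lower (median -0.16), but 4 of 8 with a median of -0.01 without that library. Oligodendrocyte genes were higher in 8 of 8 (median 0.28), or in 7 of 8 without it (0.41), when 1 of them passed the limma threshold. Microglial genes were higher in 6 of 9 (median 0.75), or in 9 of 9 without it (0.60), and astrocyte genes in 6 of 8 (0.22), or in 7 of 8 without it (0.30). Choroid plexus genes were higher in 7 of 8 (0.70), endothelial genes in 4 of 6 (0.46) and thalamus genes in 3 of 5 (0.27). Without control replicate 3 these were 8 of 8 (0.69), 5 of 6 (0.31) and 4 of 5 (0.14). Medians were 0.08 for interneurons and -0.12 for hippocampus, or 0.10 and -0.30 without that library. Apart from the excitatory neuron level, fitted as a covariate below, the part of these lists in the layer marker values was not tested.

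Across libraries the deep-layer genes varied in pairs. Over the 15 libraries without control replicate 3, 3 of the 28 pairs of layer marker genes had a Benjamini-Hochberg adjusted permutation p under 0.05 for Pearson's r, and all 3 were pairs of deep-layer genes. The permutations shuffled all 15 libraries without regard to genotype or sex, so differences between those groups also enter these correlations and p-values. Bcl11b and Foxp2 rose and fell together (Pearson r = 0.87, permutation p = 7e-05, adjusted 0.00196, Spearman rho = 0.86, p = 9e-05, adjusted 0.00252), and r was 0.78 without the 2 libraries farthest from the median of Bcl11b. Fezf2 and Tbr1 did so as well (r = 0.79, permutation p = 0.00042, adjusted 0.00588, rho = 0.60, p = 0.0206, adjusted 0.126, r = 0.60 without the 2 farthest), but their r was 0.41 with control replicate 3. Fezf2 and Foxp2 ran against each other (r = -0.68, permutation p = 0.00493, adjusted 0.046, rho = -0.66, p = 0.00927, adjusted 0.0865, r = -0.66 without the 2 farthest). Cux2 and Fezf2 passed by rank alone (rho = 0.74, permutation p = 0.00244, adjusted 0.0342, r = 0.65, p = 0.0088, adjusted 0.0616, r = 0.66 without the 2 farthest). No pair of upper-layer genes passed, and Cux1 and Cux2 had r = -0.32 (permutation p = 0.241, adjusted 0.355, rho = -0.36, p = 0.182, adjusted 0.299, r = -0.22 without the 2 farthest).

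The genes whose pattern over the same 15 libraries was most like that of Bcl11b were Penk (r = 0.948), which encodes the enkephalin precursor, Adcy5 (0.927), an adenylyl cyclase, and Gnal (0.913), a G protein subunit. Those most like Foxp2 were Tac1 (0.942), the substance P precursor, Drd1a (0.939), the D1 dopamine receptor, and Gng7 (0.936), a G protein subunit. Penk, Tac1 and Drd1a belong to the list of 11 striatal markers. The genes most like Fezf2 were Ovol2 (0.958), Neurod6 (0.946), a factor of excitatory cortical neurons, and 9130024F11Rik (0.932), and those most like Tbr1 were Arnt2 (0.941), Otx1 (0.88), a factor of deep-layer neurons, and Itpka (0.866). Cux1 was followed most closely by Ppargc1b (0.862), Ecm1 (0.85) and Slc39a13 (0.845), and Cux2 by Arpc3 (0.951), Sub1 (0.937) and Smarcc2 (0.936). Rorb was followed by Osbp2 (0.875), Rsad1 (0.855) and Cables2 (0.84), and Rasgrf2 by P4htm (0.888), Ppp2r2d (0.858) and Bcap31 (0.81). With control replicate 3 included, the r of Sub1 with Cux2 was 0.0764, whereas that of Penk with Bcl11b was 0.894 and that of Tac1 with Foxp2 0.941. These values describe the same libraries and share their depth and dissection.

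The striatal markers varied widely between mice. Their summed level was 1063, 925, 1476 and 1704 RPKM in P301S+ TREM2+/+ mice, 751, 1335, 278 and 1505 RPKM in heterozygotes, 456, 1029, 2080 and 1952 RPKM in knockouts and 286, 948, 732 and 1200 RPKM in controls. All 11 genes were listed and 9 were above 0 in every library, while Drd2 and Gpr6 were at 0 in some. Of the 9 that passed the filter, 8 were higher in P301S+ TREM2+/+ mice than in controls (median log2 difference 0.81, and 9 of 9 with a median of 1.09 without control replicate 3), and 0 passed the limma threshold. The libraries with the lowest sums, heterozygote replicate 3, control replicate 1 and knockout replicate 1, also had the 3 lowest Foxp2 and the 3 lowest Bcl11b values.

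When the log2 summed striatal level was added to the model of genotype and sex, a step chosen after these correlations were seen, Bcl11b rose with it by 0.41 per doubling (log2, SE 0.07, limma adjusted p = 0.025) and Foxp2 by 0.45 (SE 0.07, limma adjusted p = 0.0108). They were 2 of 20 genes called among the 12015 tested (0.166%), 7 of which were on the striatal list itself. Without control replicate 3 the slopes were 0.41 (limma adjusted p = 0.00306) and 0.44 (limma adjusted p = 0.000974), with 0.316% of genes called. Fezf2 had a slope of -0.41 (SE 0.12, limma adjusted p = 0.815), Tbr1 -0.17 (SE 0.21, limma adjusted p = 1), and those of Cux1, Cux2, Rorb and Rasgrf2 lay between -0.11 and 0.13 (limma adjusted p = 1 each). With this level in the model, the P301S effect on Bcl11b was -0.11, against 0.23 without it. The same step with the summed level of 7 excitatory neuron genes gave slopes of 0.70 for Fezf2 (SE 0.23) and 0.50 for Rorb (SE 0.17), both with a limma adjusted p of 0.358, and called none of the 8 genes. It called 0.025% of all genes, or 0.35% without control replicate 3, where again none of the 8 passed. Without that library the slopes were 0.88 for Fezf2, 0.58 for Rorb, 0.63 for Tbr1 (0.05 with it) and 0.52 for Cux2 (0.27 with it). Their limma adjusted p ranged from 0.115 to 0.162. The slopes of Cux1, Rasgrf2, Bcl11b and Foxp2 were then negative, from -0.35 to -0.06.

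**Figure D4:**
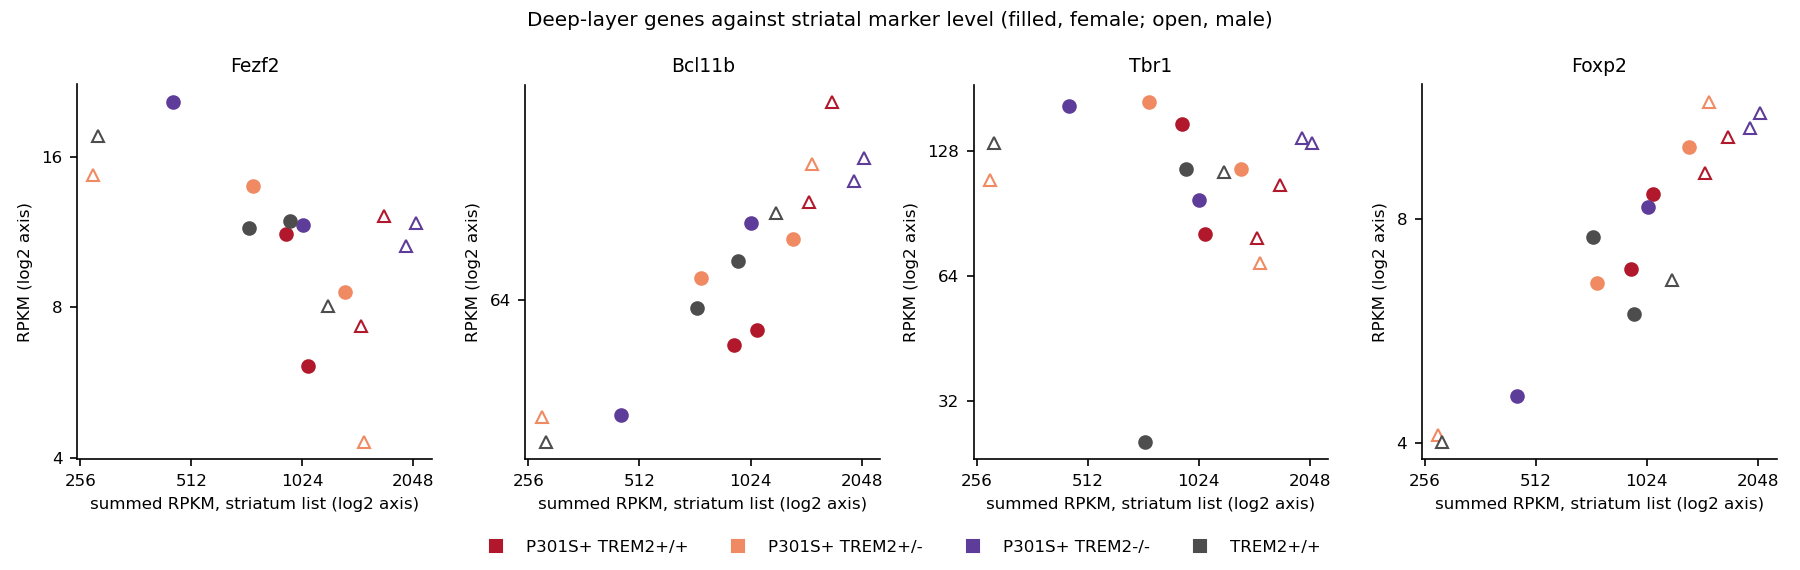
RPKM of the 4 deep-layer genes (y axis, log2 scale) against the summed RPKM of 11 striatal markers (x axis, log2 scale) in each of the 16 libraries, coloured by genotype, with females as filled circles and males as open triangles. Bcl11b and Foxp2 climb with the striatal level (slopes 0.41 and 0.45), Fezf2 has a slope of -0.41 (limma adjusted p = 0.815), and Tbr1 is lowest in control replicate 3 at 25.4 RPKM.

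No difference between the sexes in the response of a layer marker gene passed the test of the interaction. By limma, 0 of the 8 genes passed for the P301S effect (0.00832% of all genes), partial loss (0%) or complete loss (0%). The largest of these differences was that of Tbr1 in the P301S effect, with 0.997 in females and -0.43 in males (female minus male 1.43, SE 0.81, limma adjusted p = 0.427). The female controls included replicate 3, with its low Tbr1, and without it the females had -0.08 (female minus male 0.35, SE 0.52, limma adjusted p = 0.796). Bcl11b had the next largest, with -0.20 in females and 0.67 in males (-0.87, SE 0.51, limma adjusted p = 0.436, or -0.96 without control replicate 3). Without control replicate 3 the largest was that of Cux2 in the P301S effect (-0.98), with -1.18 in females and -0.20 in males. In that fit, which left 1 control female, 0 of the 8 genes passed for the P301S effect (2.41% of all genes), partial loss (3.19%) or complete loss (4.71%).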

How the data were processed

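Cortical RNA of 16 mice was extracted with an RNeasy kit and converted with Lexogen's QuantSeq 3' chemistry, in which reads sit at transcript 3' ends, per the labels' protocols. Per the submitters' processing notes, the build was mm10 and the software included STAR, HTSeq, limma and edgeR, with no version or role recorded. The deposited values are RPKM per gene and library. The unit was read from the values, since the file headers name the library alone. Whole reads recovered from the steps of the deposited RPKM values (18911 of 18911 genes above 0, tolerance 1e-05 reads or a relative 3e-07) gave 2.55 to 14.47 M reads per library, and read numbers cover counting error only. In each file 1 line named no gene and was left out. Chi-square per gene (20 reads or more) was at least 6.87 for any pair of libraries within a genotype. Each library was counted as a mouse, although this value alone cannot tell mice from separate preparations.

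Differences were fitted with limma 3.58.1 (R 4.3.3, trend on) on log2(RPKM + 1) over the 12015 genes with a mean of at least 1 RPKM. The model held the 4 genotypes and additive sex (11 residual degrees of freedom, or 8 for the sex interaction), with Benjamini-Hochberg adjustment over all genes and a threshold of 0.05. The scripts were tested on simulated data. The scale understates changes of low genes. Correlations between layer marker genes used 100000 permutations (numpy 2.4.6). Genes were named by rule: the 8, Trem2, the 5 most abundant of each further layer list and the 2 most abundant of any other list (given where a result turned on them), and the 3 most correlated with each of the 8. The genes and lists were chosen with earlier results of these data known. Motifs were searched in RefSeq promoter windows (GRCm38.p6). Mice were numbered within a genotype in accession order, and no batch is given, so a batch that followed the genotypes cannot be told apart from them. Alternatives covered the pseudocount, filter, sex term, samples in the fit, voom on recovered reads, array weights, TMM factors, left-out libraries, and marker levels as covariates.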

Additional observations from a re-analysis of the deposited data

Results flagged for a closer look

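In 32 sets of 4 libraries (8 genes in 4 genotypes), 2 had an end value whose gap to its neighbour, divided by the range of the set, passed Dixon's 95% limit for 4 samples, which chance passes in about 1 of 20 sets. Rasgrf2 in the controls stood at 105 RPKM in replicate 3, while the other 3 controls had 36.7 to 43.1 RPKM (gap over range 0.908). Fezf2 in the knockouts stood at 20.6 RPKM in replicate 1, while the other 3 knockouts had 10.6 to 11.8 RPKM (gap over range 0.877).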

How the results depend on the processing

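Of 624 alternative values of the log2 differences, 584 kept their direction and their side of the threshold, 39 changed sign and 1 came past the threshold. With array weights, 1 layer marker gene was called in complete loss (Rasgrf2, -0.55, adjusted p 0.041) against 0 without. Those weights changed the sign of the P301S effect on Rasgrf2 (0.0519) and Tbr1 (-0.17) and of partial loss for Fezf2 (-0.10), Bcl11b (0.0825) and Foxp2 (0.10). Without control replicate 3 and both P301S+ TREM2+/+ females, the sign changed for Tbr1 in the P301S effect (-0.33), for Cux2 (-0.0401), Rasgrf2 (0.0539) and Fezf2 (-0.16) in partial loss, and for Cux2 (-0.0935) and Bcl11b (-0.30) in complete loss. With the striatal level as a covariate, chosen after seeing the data, it changed for Bcl11b in the P301S effect (-0.11) and for Cux1 (0.0359), Fezf2 (-0.18), Bcl11b (0.15) and Foxp2 (0.11) in partial loss. With the excitatory neuron level, also chosen after seeing the data, it changed for Rorb (0.14) and Fezf2 (0.22) in the P301S effect. The cause was not tested.

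Leaving out each library in turn gave sign changes in these ranges. In the P301S effect they were -0.0005 to 0.34 for Bcl11b, -0.47 to 0.0204 for Rasgrf2 and -0.30 to 0.52 for Tbr1. In partial loss they were -0.16 to 0.41 for Fezf2, -0.12 to 0.0764 for Cux1, -0.10 to 0.39 for Tbr1, -0.22 to 0.13 for Bcl11b and -0.36 to 0.12 for Foxp2. In complete loss they were -0.0920 to 0.19 for Bcl11b, -0.26 to 0.0361 for Rorb and -0.18 to 0.18 for Foxp2. The number of layer marker genes whose groups did not overlap ran from 0 to 1 in the P301S effect, partial loss and heterozygotes minus controls, and from 1 to 2 in knockouts minus heterozygotes and knockouts minus controls. In knockouts minus heterozygotes it was 0 with TMM factors. The shares of all genes under these alternatives are not given, and groups short of a library are more often free of overlap. No result about the layer marker genes is read from these counts. The tests of whole reads with edgeR and DESeq2 were planned but not run. The deposited unit is RPKM, and recovered reads entered the fits through the voom and TMM alternatives alone. Females and males alone gave values with no test, and the sex interaction without control replicate 3 was added after seeing the data. No paired analysis was possible because the labels give the mice no replicate number shared between genotypes. Precision was limited by 4 mice per genotype, with an SE of 0.16 for Cux1 and 0.44 for Tbr1. Control replicate 3 raised the SE of Tbr1, which was 0.24 in complete loss without that library. For Cux2 precision was also limited by depth, with as few as 19 reads in a library.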
